A study of Caenorhabditis elegans with 2 samples.

Results

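In the nematode Caenorhabditis elegans many neighbouring genes lie head to tail on the same strand with little sequence between them. Chromatin regions enriched with the tagged protein ALY-2 are described here at such tandem gene gaps on the 5 autosomes. A region of the pooled list was a member when its summit lay within 500 bp of both the 3′ end of one protein-coding gene and the 5′ end of the next protein-coding gene on the same strand. The ends of the genes had to be at most 500 bp apart, and summits at a head-to-head pair of 5′ ends within 1000 bp were left out. This gave 1132 of the 17335 pooled regions, or 7.85% of the 14425 regions on autosomes. They lay at 1017 separate gaps, 28.0% of the 3637 such gaps on autosomes, of which 904 held 1 region, 111 held 2 and 2 held 3, so that 228 member regions shared their gap with another.

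Chromatin immunoprecipitation and sequencing was done on whole third-stage (L3) larvae, with the sexes pooled, of strain OP217. Its genotype is unc-119(ed3) III; ddIs172, an insertion carrying aly-2 fused to eGFP, so every sample has both the unc-119 mutation and the transgene. There was 1 group of 2 biological replicates, with library fragments of 150 to 350 bp, and no control was analysed here. For the antibody, the promoter of the transgene and the number of worms, the sources used here give nothing, and whole worms do not show which tissues a region comes from.

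In worm operons a single promoter drives several genes, and the long precursor RNA is cut at the 3′ end of each upstream gene while the next gene's RNA receives an SL2 spliced leader at its 5′ end. Gaps inside operons are typically short, which is why gaps of this kind are called operon-like. The tagged protein is a worm Aly/REF protein, one of a family of RNA-binding adaptors that join messenger RNA during transcription and processing and pass it to the nuclear export receptor. Which gaps belong to annotated operons, and which downstream genes receive SL2, was not analysed here, so the regions are called tandem gap regions below.

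The authors deposited for the pooled reads a relaxed list of regions, each with a summit and a height. The height is their signal value, of a scaling that is not stated. They also deposited an optimal list, thresholded by irreproducible discovery rate between replicates. The optimal list held 368 regions, 2.12% of the pooled list, and these were the 368 highest of that list. A share in the optimal list is therefore a share of the highest pooled regions. It does not show that each single region ranked alike in both replicates. Read depth is unknown. Regions had a median width of 396 bp, so a place given for a summit is that of 1 base in a wider region. All regions came from 1 pooled list of 1 group, so they are not replicates and no difference below has a test; intervals are 95% Wilson intervals and cover counting over regions only.

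The sequence of 7 gaps is shown first, to let the reader see how little sequence separates the genes and what it holds. They are among the highest gaps in the optimal list, overlap no other annotated gene or exon and span at most 300 bp. Each runs 5′ to 3′ along the coding strand, from the base after the upstream gene's annotated 3′ end to the base before the downstream gene's annotated 5′ end (ce11, the same assembly as WBcel235; sequence from RefSeq). Capitals mark TTTCAG, the letters of a worm splice acceptor, which trans-splicing also uses, and GCGC, a palindrome counted with overlaps.
spop-1 to gtf-2H2C (chrIII:10090786-10090861, minus strand): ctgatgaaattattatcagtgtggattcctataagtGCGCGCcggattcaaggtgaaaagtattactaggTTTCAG
Y39B6A.42 to Y39B6A.43 (chrV:18967830-18967904, minus strand): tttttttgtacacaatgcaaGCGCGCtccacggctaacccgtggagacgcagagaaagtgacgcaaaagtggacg
sec-24.1 to F12F6.7 (chrIV:11561834-11561985, minus strand): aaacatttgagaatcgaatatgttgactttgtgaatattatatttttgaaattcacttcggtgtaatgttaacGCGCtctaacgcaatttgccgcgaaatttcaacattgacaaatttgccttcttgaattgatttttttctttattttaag
atp-2 to prmt-5 (chrIII:5230537-5230554, plus strand): aaaactgcgagtttgttg
C55A6.11 to pafo-1 (chrV:11521555-11521702, plus strand): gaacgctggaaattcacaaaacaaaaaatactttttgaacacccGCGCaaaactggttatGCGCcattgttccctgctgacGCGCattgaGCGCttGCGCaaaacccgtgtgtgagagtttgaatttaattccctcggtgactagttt
K08D12.3 to rpi-2 (chrIV:1711128-1711261, plus strand): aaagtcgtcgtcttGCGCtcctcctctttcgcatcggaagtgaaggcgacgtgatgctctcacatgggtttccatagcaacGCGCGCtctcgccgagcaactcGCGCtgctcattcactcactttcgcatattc
rpl-20 to cyc-2.1 (chrIV:4749013-4749122, minus strand): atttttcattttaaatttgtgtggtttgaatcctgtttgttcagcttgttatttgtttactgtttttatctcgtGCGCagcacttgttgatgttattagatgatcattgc

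The gap between atp-2 and prmt-5 had 18 bp, and that between sec-24.1 and F12F6.7 had 152 bp. TTTCAG stood directly before the annotated 5′ end of gtf-2H2C, a subunit of the transcription factor TFIIH, in the gap after spop-1. GCGC was present 5 times between C55A6.11 and pafo-1, 4 times between K08D12.3 and rpi-2 and not at all between atp-2 and prmt-5. The summit lay inside the printed sequence in the gaps after Y39B6A.42 and C55A6.11, and past it, in the downstream gene, at the other 5.

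Tandem gap regions were in the optimal list more often than autosomal regions in general. Of the 1132 members 63 were in it (5.57%, interval 4.37 to 7.06%), where the share among all autosomal regions was 2.20% (318 of 14425). Among the autosomal regions that were not at a tandem gap the share was 1.92% (255 of 13293, 1.70 to 2.17%). The 63 lay at 62 gaps, and they made up 19.8% of all optimal regions on autosomes.

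Other places with a gene end gave a range of shares. Regions between convergent 3′ ends had a share of 5.92% (60 of 1013, 4.63 to 7.55%), close to that at tandem gaps, and divergent promoters had 9.33% (32 of 343, 6.69 to 12.9%). At isolated 3′ ends it was 2.41% (40 of 1660, 1.77 to 3.26%) and at single 5′ ends 1.76% (29 of 1652), while regions with no gene end within 500 bp had 0.95% (79 of 8314). A tandem gap thus had a higher share than a single end of either kind, with intervals that did not overlap. Its interval overlapped those of convergent 3′ ends and of divergent promoters.

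**Figure D1:**
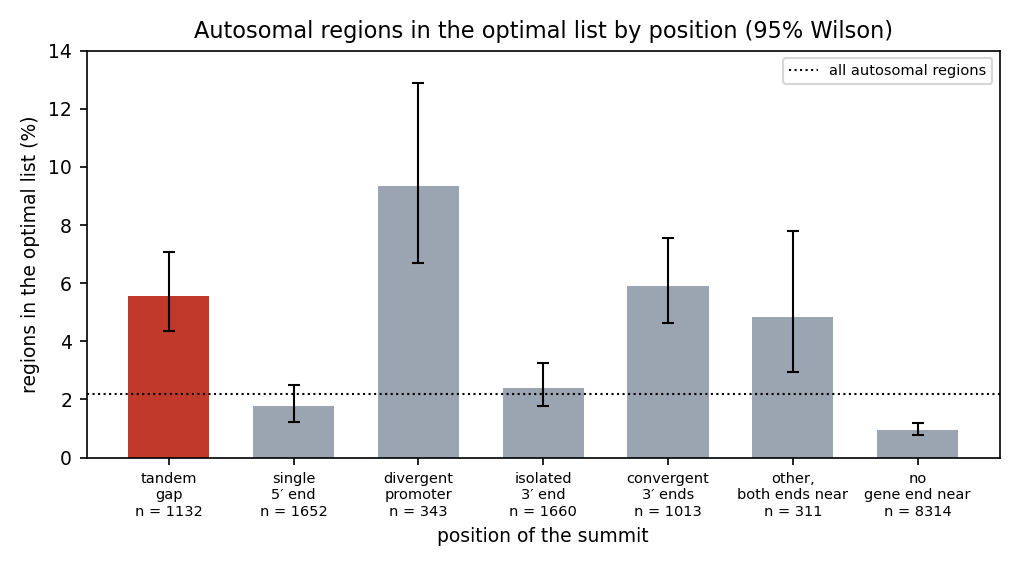
Share of autosomal pooled regions that were in the optimal list (vertical axis, percent), by position of the summit, with n regions in each class; bars are shares and error bars 95% Wilson intervals. The tandem gap bar stands at 5.57%, against 2.20% for all autosomal regions (dotted line), and its interval overlaps those of convergent 3′ ends, divergent promoters and the class with both ends near.

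Members were also counted against the length of sequence that the rule admits. The stretches where a summit could qualify made up 3.46% of autosomal bases (2854 kb) and held 39.7 members per 100 kb, against 16.7 regions per 100 kb elsewhere on autosomes, a ratio of 2.38. For optimal regions the densities were 22.1 per Mb in these stretches and 3.2 per Mb elsewhere, a ratio of 6.9.

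Heights of members were only a little above those of other autosomal regions, apart from the upper end. The median height was 20.3 at tandem gaps (quartiles 16.6 and 26.8, highest 124.3), against 18 in other autosomal regions (15.8 and 22, highest 178.6). The 63 optimal members spanned 44.1 to 124.3 with a median of 53.1, and the other 1069 members 14.2 to 43.47 with a median of 19.8. The optimal list follows height, so the separation of these ranges is how the list was made and not a result.

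The member of greatest height lay at the end of vha-13, which encodes the A subunit of the vacuolar proton pump, where its last 13 bases overlap the start of Y49A3A.3. Its height was 124.3 in the pooled list, 44.1 in replicate 1 and 83.2 in replicate 2, and its summit was 189 bp beyond the end of vha-13, in a coding exon of Y49A3A.3 (chromosome V, region 14354531 to 14354675). The next was at icl-1, the glyoxylate cycle enzyme of the worm, before fbxb-72, with a height of 102.7 (40.7 in replicate 1 and 66.5 in replicate 2) and a summit 148 bp past icl-1 in a gap of 379 bp. Both were among the 51 highest regions of each replicate.

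At unc-54, the major muscle myosin heavy chain, the region before aex-5, a proprotein convertase gene, had a height of 85.9, with 54.2 in replicate 1 and 31.8 in replicate 2. Its summit was 48 bp beyond the end of unc-54, inside a gap of 73 bp, but the region itself covered both gene ends. The region between pqn-59 and R119.3, whose annotated ends overlap by 3 bases, had a height of 84.8 (36.3 in replicate 1 and 51.1 in replicate 2). By rank within its own list the unc-54 region stood at 17 in replicate 1 and 225 in replicate 2, and the pqn-59 region at 71 and 41. Heights of the 2 replicates are given side by side but come from separate lists whose scaling is not stated, so only ranks are compared between them.

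Among the others of the 15 highest gaps, the region after ant-1.1, an ADP/ATP translocase, before kel-3 had a height of 80.6 (36.5 in replicate 1 and 46.7 in replicate 2) and lay 134 bp past the gene. This was the only gap with more than 1 optimal region, the other having a height of 51.2 (19.5 and 27.4) and a summit 344 bp past ant-1.1. The 2 regions overlap (13464588 to 13464983 and 13464798 to 13465193), so they need not be separate sites. At ahcy-1, adenosylhomocysteinase, before dpf-3 the height was 76.2 (38.1 and 42.6 in replicates 1 and 2). At atp-2, the beta subunit of ATP synthase, before the arginine methyltransferase gene prmt-5 it was 68.9 (48.1 and 28.3). In the last of these the summit was 67 bp beyond atp-2 and so already in the coding exon of prmt-5, since the gap has 18 bp. Between nspg-9 and dld-1, dihydrolipoamide dehydrogenase, the height was 66.8 (26.1 and 41.1), and here the enzyme was the downstream gene.

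The region after spop-1, a MATH and BTB domain protein, had a height of 81.1 (47.6 and 30.1 in replicates 1 and 2), and that between Y39B6A.42 and Y39B6A.43 had 78.8 (42.6 and 37.2). At pas-3, a proteasome alpha subunit, before chp-1 it was 74.0 (35.6 and 35.5), with ranks of 77 in replicate 1 and 148 in replicate 2. After sec-24.1, a component of the COPII vesicle coat, it was 73.5 (34.7 and 39.1).

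The region before cmtr-1, an mRNA cap methyltransferase, had 68.9 (31.8 and 35.6), and a snoRNA gene, Y53F4B.47, lay within 500 bp of its summit. The region before pafo-1, of the PAF1 complex that travels with RNA polymerase II, had 68.1 (29.0 and 37.8). That between K08D12.3 and rpi-2 had 64.9 (34.1 and 30.9). Between ZK550.2 and eelo-2 the height was 68.8, with 20.7 in replicate 1, where the region ranked 658, and 48.0 in replicate 2, where it ranked 51. That gap was therefore among the 368 highest regions of replicate 2 and not of replicate 1.

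Small noncoding genes were counted near the summits of members only. A snoRNA, snRNA or tRNA gene lay within 500 bp of 23 of all 1132 members (2.03%) and of 2 of the 63 optimal members (3.17%), the one before cmtr-1 and the one between cyn-3 and Y75B12B.11. The share near all autosomal regions was not counted, so these shares cannot be called high or low.

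The summits of the optimal members stood past the end of the upstream gene. Of the 63, 61 had the summit beyond the upstream gene's 3′ end (96.8%, 89.1 to 99.1%), against 823 of the 1069 other members (77%, 74.4 to 79.4%). The rule itself favours that side, because it also asks for the downstream 5′ end: 61.9% of the bases where a summit could qualify around the optimal members' gaps, and 62.5% around the others', lay beyond the 3′ end. Both sets exceeded that share, and their intervals did not overlap.

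The distance beyond that end varied less than the distance from the downstream gene. The median summit of the optimal members was 194 bp beyond the 3′ end (quartiles 104.5 and 258, range -50 to 475), and 53 of 63 (84.1%) lay within the first 300 bp beyond it, against 598 of the 1069 others (55.9%). Measured from the downstream 5′ end the same summits spread from -419 to 433 bp with an interquartile range of 335.5 bp. That is wider than the interquartile range of 153.5 bp from the 3′ end. In the other members the interquartile ranges were 265 bp from the 3′ end and 352 bp from the 5′ end.

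**Figure D2:**
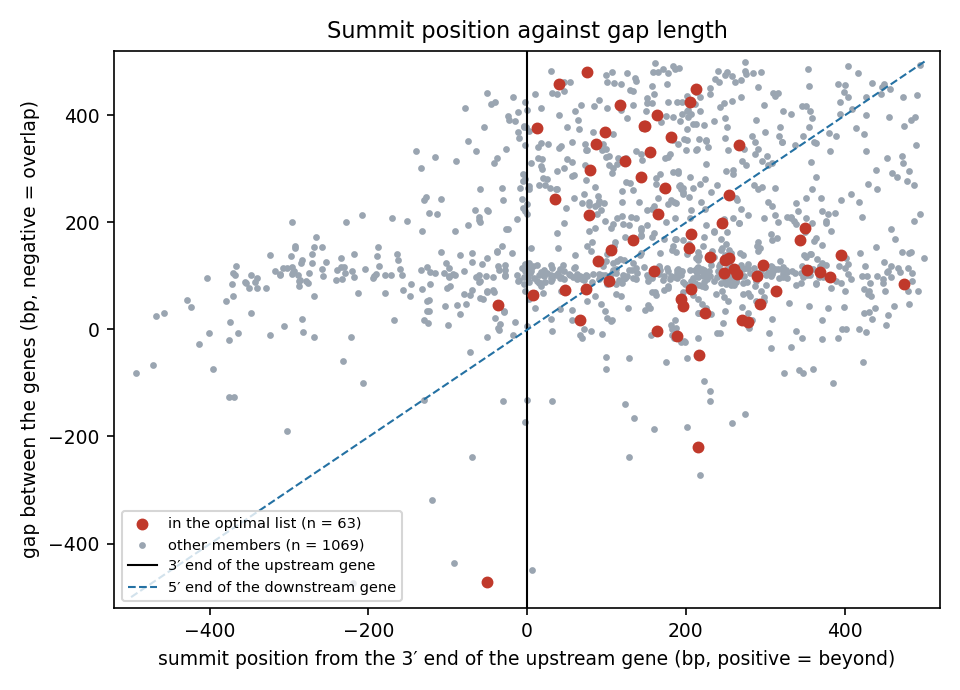
Each point is a member region, placed by the distance of its summit from the upstream gene's 3′ end (horizontal axis, bp, positive beyond it) and the length of the gap (vertical axis, bp, negative where the genes overlap); red points are the 63 optimal members and grey points the other 1069. Red points stay right of the solid line that marks the 3′ end in 61 of 63 cases, on both sides of the dashed line that marks the downstream 5′ end.

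The exceptions were both of low height for the optimal list. At hrpa-1, an hnRNP A1 protein that binds messenger RNA, the summit was 37 bp before the annotated end, in its UTR, with a height of 45.2 (26.5 in replicate 1 and 31.9 in replicate 2). The gap from hrpa-1 to F42A6.6 has 46 bp. At let-607, a bZIP transcription factor, the summit was 50 bp before the end where the annotated gene overlaps try-6 by 472 bases, and the height was also 45.2 (27.6 in replicate 1 and 21.0 in replicate 2).

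How the summit fell on the annotation went with the length of the gap. The rule favours this, because a longer gap fills more of the bases where a summit could qualify. At short gaps most optimal summits were already in the downstream gene: 13 of 17 at gaps of 0 to 100 bp and 16 of 19 at 100 to 200 bp. At gaps of 200 to 300 bp 6 of 7 optimal summits were in the gap, and at 300 to 400 bp (10 of 10) and 400 to 500 bp (5 of 5) all were. The other members changed in the same way. From the shortest to the longest of these classes, 31 of 284, 63 of 327, 79 of 148, 90 of 127 and 96 of 109 of their summits were in the gap. Over all lengths 34 of 63 optimal summits were in the downstream gene (54%), 27 in the gap (42.9%), 1 in the upstream gene and 1 where the genes overlap. By sequence kind of the summit base 26 lay outside protein-coding genes (41.3%), 19 in coding exons (30.2%), 13 in introns (20.6%) and 5 in UTRs (7.94%). The regions, with a median width of 396 bp, often reach beyond the kind of sequence at their summit.

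The distance from the 3′ end changed less with gap length than that from the 5′ end. For the optimal members the median from the 3′ end was 206 bp at gaps of 0 to 100 bp, 250 bp at 100 to 200, 144 bp at 200 to 300, 147.5 bp at 300 to 400 and 117 bp at 400 to 500 bp. From the downstream 5′ end the medians in the same order were 152, 120, -136, -233 and -302 bp. The midpoint of the stretch the rule admits moves the other way from the first series, at 39.5, 60, 123, 174 and 221.5 bp from the 3′ end. In the other members the median from the 3′ end was 152, 166, 164, 180 and 203 bp, which was longest at the longest gaps. Each class held 5 to 19 optimal regions, so single regions can move these medians.

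Among the other members only the highest class by height stood apart in the share of summits beyond the 3′ end. When the other members were divided by height into 4 classes of equal size, 86.5% of the 267 summits in the highest class, with heights of 25.3 to 43.47, were beyond the 3′ end (81.9 to 90.1%). In the next 3 classes the shares were 75.7%, 73.4% and 72.4%, with overlapping intervals. The median distance was 187 bp in the highest class and 181, 129 and 155 bp in the next ones. Presence in both replicates was 84.3%, 64.4%, 30% and 15.3% in the classes from high to low, so a lower region is also one seen less often in both replicates.

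**Figure D3:**
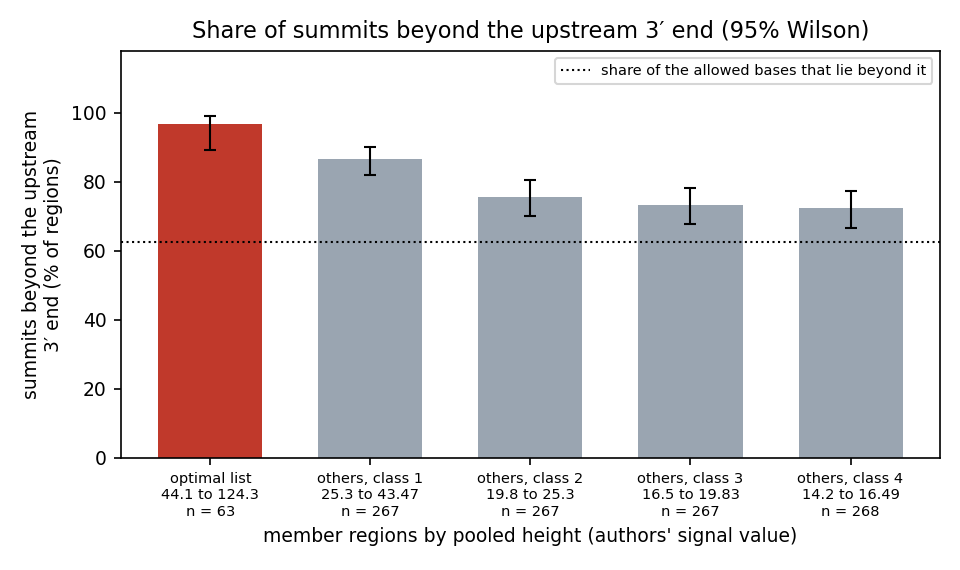
Share of member summits beyond the upstream gene's 3′ end (vertical axis, percent) in the optimal list and in 4 classes of equal size of the other members from high to low pooled height; error bars are 95% Wilson intervals and the dotted line is the 62.5% of admitted bases that lie beyond that end. The share is 96.8% in the optimal list, 86.5% in the highest class of the others and 72.4% in the lowest.

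The same placement was found with each replicate's list alone, with the 368 highest regions of that list in place of the optimal list. In replicate 1 the rule gave 1459 members, 54 of them among those highest (3.7%, 2.85 to 4.8%, against 1.28% of that list's autosomal regions), and 49 of the 54 were beyond the 3′ end (90.7%, 80.1 to 96%) against 1006 of the 1405 others (71.6%). In replicate 2 it gave 1461 members with 58 among the highest (3.97%, 3.08 to 5.1%, against 1.4%), and 54 of the 58 were beyond (93.1%, 83.6 to 97.3%) against 1050 of 1403 (74.8%). The median distance of the highest members was 162.5 bp in replicate 1 and 173.5 bp in replicate 2. Both replicates therefore placed their highest tandem gap regions past the upstream end.

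The side of the summit was compared with that at other 3′ ends. Taken from the nearest 3′ end of any gene, 58 of the 63 optimal tandem regions lay beyond it (92.1%), as did 34 of 40 optimal regions at isolated 3′ ends (85%) and 39 of 60 between convergent 3′ ends (65%). In the remaining class with both a 5′ and a 3′ end near, all 15 of 15 did (100%), so the share at tandem gaps was not the highest. Among regions outside the optimal list the shares were 75.9% of 1069 at tandem gaps, 62.9% of 1620 at isolated 3′ ends, 73.3% of 953 between convergent ends and 70.6% of 296 in that remaining class. Between convergent genes the space beyond one end is soon the body of the other gene, so the shares are not measured over like amounts of sequence.

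All 63 optimal members had a region over their summit in both replicates. Their list was made from these same replicates, so this is not an independent result. Of all 1132 members 581 had such a region in both (51.3%, 48.4 to 54.2%), against 41.4% of all autosomal regions and 54.5% of those between convergent 3′ ends. A further 244 members were found in replicate 1 only, 273 in replicate 2 only and 34 in neither. Optimal members had heights of 9.65 to 54.2 (median 25.9) in replicate 1 and of 14.6 to 83.2 (median 30.9) in replicate 2.

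Among the 368 highest regions of replicate 1 were 37 of the 63 optimal members (58.7%, against 2.36% of all autosomal regions), and among those of replicate 2 were 42 (66.7%, against 2.47%). In both sets were 23 (36.5%, against 0.887%), and in neither were 7. The optimal list follows a pooled height drawn from these same replicates. Shares above those of all autosomal regions therefore follow from how the list was made and are not a result. Between the replicates' heights, Spearman's rho was 0.42 and Pearson's r 0.57 over the 581 members found in both, and over the 63 optimal members they were 0.092 and 0.27. These are correlations across regions that share the same 2 libraries, some of which share a replicate region, and the optimal members were chosen on a pooled height from those libraries. At tba-1, an alpha-tubulin gene, before drsh-1, the worm Drosha, the height was 9.7 (rank 13748) in replicate 1 and 31.1 (rank 243) in replicate 2, for a pooled 48.9; this gap was picked after its values were seen, for that difference in rank.

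**Figure D4:**
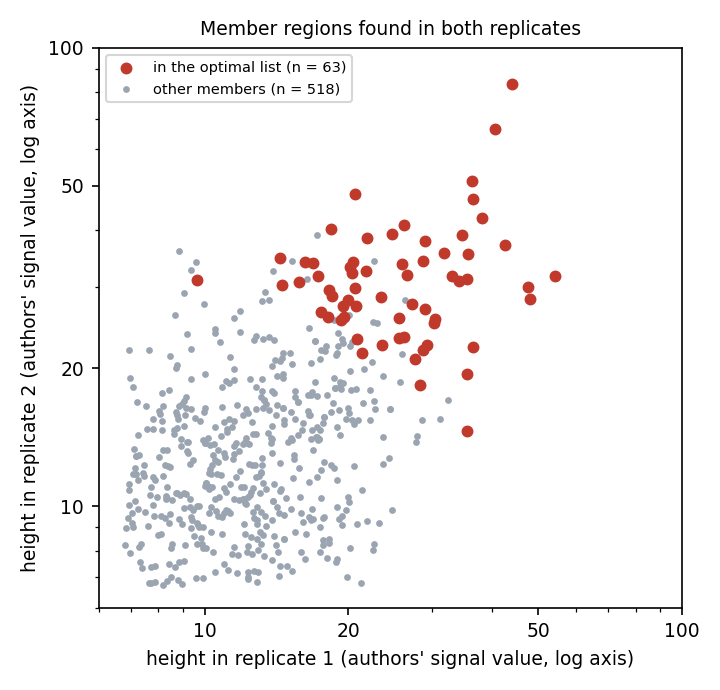
Height in replicate 1 (horizontal axis) and replicate 2 (vertical axis), both the authors' signal value on log axes, of the 581 members found in both replicates; red points are the 63 optimal members and grey points the other 518. Red points fill the upper right, and the lowest in replicate 1, tba-1 to drsh-1 at 9.7, stands at 31.1 in replicate 2.

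The gaps themselves were then counted against all gaps of their kind. Of 3637 autosomal same-strand gaps of at most 500 bp, 1017 held a member (28.0%, 26.5 to 29.4%) and 62 an optimal one (1.70%). Member gaps were shorter: member regions had a median gap of 120 bp, gaps with a member 120 bp (quartiles 91 and 278) and gaps without one 172 bp (96 and 330). The share with a member was 34.6% at 0 to 100 bp (31.4 to 38%), 30.7% at 100 to 200, 26.1% at 200 to 300, 23.4% at 300 to 400 and 22.1% at 400 to 500 bp, and 22.3% where the genes overlap. A short gap leaves more bases within 500 bp of both ends, and per 100 kb of admitted sequence members numbered 41.1, 40.6, 37.5, 40 and 44 in these classes and 29.4 where genes overlap. Counted that way the share did not fall with gap length.

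At the limit of the rule, the 18 members at gaps from 480 bp up to the limit had heights of 14.4 to 46.1 with a median of 16.4. The 16 regions at gaps just past it, up to 520 bp, had 14.4 to 50.5 with a median of 19.4. The longest gap in the optimal list, of 481 bp, was between lpin-1, the worm lipin, and H37A05.4. Its region had a height of 46.1 (15.8 in replicate 1 and 30.9 in replicate 2) and a summit 76 bp past lpin-1.

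By chromosome, gaps with a member were 33.8% of 668 on chromosome I, 32.1% of 647 on III, 31.1% of 628 on IV, 26.9% of 740 on II and 19.8% of 954 on V. Optimal members numbered 15 on I, 15 on IV and 11 on each of II, III and V, which is between 4.68% (III) and 7.04% (IV) of each chromosome's members. Chromosome V had the lowest share of gaps with a region, but its members reached the optimal list at 5.29%, between those of the others. Under the same rule chromosome X held 65 regions at 57 of 299 gaps (19.1%), 2 of them optimal (3.08%, 0.848 to 10.5%).

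Joining genes across such gaps gave 2581 tandem runs, 1879 of 2 genes, 478 of 3, 139 of 4, 52 of 5 and 33 of 6 or more. Within 500 bp of a gap's midpoint a pooled region was found at 30.9% of gaps (29.4 to 32.4%), of the last gene's 3′ end at 26.5% of runs (24.9 to 28.3%) and of the first gene's 5′ end at 22.9% (21.3 to 24.5%). Optimal regions were at 1.73% of gap midpoints, 0.93% of last 3′ ends (0.626 to 1.38%) and 1.78% of first 5′ ends. Gaps thus held pooled regions more often than either outer end of a run, with intervals that did not overlap, while for optimal regions the gaps and the first 5′ ends had nearly equal shares.

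The share with a member varied little with the order of the gap in its run. A member was found at 27.8% of gaps that came first in their run, 28.5% of those at position 2, 26.8% at position 3 and 30.5% of later gaps. Optimal members were at 1.86% of the 2581 first gaps, 1.43% of the 701 at position 2, 1.34% of the 224 at position 3 and 0.763% of the 131 later ones, on few regions. Of the 702 runs with more than 1 gap, 119 had members at more than 1, and none had optimal members at more than 1. Of the 62 optimal gaps 35 were in runs of 2 genes and 27 in longer runs.

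The run with most occupied gaps had 9 genes, from sgo-1, the shugoshin, to rpap-3 on chromosome IV, with members at 6 of its gaps. The highest, at the end of rsp-6, an SR splicing factor, before imp-3, had a height of 39.5 (20.2 in replicate 1 and 17.9 in replicate 2). Between tag-321 and sec-10, of the exocyst, it was 35.8 (20.3 and 15.4). The other 4 had 14.7 to 22.9, and those between imp-3 and tag-322 and between tag-322 and tag-321 were not found in replicate 1. All 6 summits were beyond an upstream 3′ end, by 32 to 249 bp, as were 78.1% of all member summits. On chromosome I the run from C53H9.2 to nlp-12 had a member at each of its 4 gaps, the highest, of 30.1, after rpl-27 before egl-30, the Gq alpha subunit; it was listed in replicate 2, at 32.7, and not in replicate 1.

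Which genes border the gaps was described with 12 lists made from gene names. Genes for cytosolic ribosomal proteins had the highest share of the 12 as the upstream gene. Of the 35 gaps after such a gene 30 held a member (85.7%), against 28.0% of all gaps. An optimal member was at 2 of the 35 (5.71%), against 1.70% of all gaps. Where such a gene was downstream, 4 of 8 gaps held a member. The 36 regions at the 30 gaps had heights of 14.5 to 63.89 with a median of 22.3, and 24 of the 36 were found in both replicates. Their median summit was 194 bp past the ribosomal gene's 3′ end, and 30 of the 36 summits were beyond it. Of all 1132 members, 78.1% had the summit beyond the upstream 3′ end and 51.3% were found in both replicates.

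The highest was at rpl-20, of the large subunit, before cyc-2.1, cytochrome c, with a height of 63.9 (21.9 in replicate 1 and 38.5 in replicate 2) and a summit 353 bp past rpl-20, in an intron of cyc-2.1. At rps-5, of the small subunit, before pigk-1, of the GPI transamidase, it was 53.5 (29.0 and 27.0) with a summit 396 bp past rps-5. Both summits were farther out than the median optimal member. The region at rps-4 before Y43B11AR.3 had 43.5 (13.4 and 29.3), that at rpl-6 before R151.2 had 42.7 (22.5 and 25.2) and that at rpl-7 before F53G12.9 had 42.1 (8.8 and 36.0), none of them optimal. At rpl-43 before xrn-2, the exoribonuclease known for its part in transcription termination, it was 35.5 (11.9 and 26.6).

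The pump and the proteasome had high shares on few gaps. After genes of the vacuolar ATPase 5 of 6 gaps held a member (83.3%), against 28.0% of all gaps. An optimal member was at 2 of the 6 (33.3%), against 1.70% of all gaps. Besides vha-13, the optimal member was at vha-2, a proteolipid subunit, before R10E11.6, with a height of 61.4 (25.9 in replicate 1 and 33.7 in replicate 2), where the annotated genes overlap by 219 bases. After proteasome genes 7 of 13 gaps held a member (53.8%) and 2 an optimal one (15.4%). The optimal ones were at pas-3, given above, and at rpn-1, of the regulatory particle, before T22D1.8, at 53.5 (29.2 and 22.5). The next, pbs-2 before the alpha-tubulin gene tba-2, had 42.5 (27.8 and 14.2) and was not optimal. As downstream genes the pump had 2 of 4 gaps with a member and the proteasome 3 of 8.

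Among translation factors 10 of 20 gaps after such a gene held a member (50%), against 28.0% of all gaps, and 2 of 8 before one did. The region after eef-1B.2, of elongation factor 1, before hrpu-1, of the hnRNP U family, had a height of 53.1 (30.4 in replicate 1 and 25.6 in replicate 2) with a summit 7 bp past eef-1B.2. That after eif-3.F, an initiation factor 3 subunit, before scp-1 had 51.3 (26.2 and 23.4), and that before eif-3.C, after the beta-catenin gene sys-1, had 56.9 (20.5 and 34.0). These 3 were the optimal members of the list, and in the last the factor was the downstream gene. Optimal gaps were 10% of the 20 upstream and 12.5% of the 8 downstream, against 1.70% of all gaps, on few regions.

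The next shares also stand against 28.0% of all gaps. For splicing factors and hnRNP proteins 10 of 23 upstream gaps held a member (43.5%) and 5 of 10 downstream ones. For respiratory chain and ATP synthase genes it was 12 of 29 upstream (41.4%) and 8 of 19 downstream (42.1%). Chaperones had 6 of 15 upstream (40%) and 4 of 11 downstream (36.4%), with none optimal; the highest were at cct-6, of the chaperonin, before ddx-23 at 34.9 (15.9 and 10.5 in replicates 1 and 2) and at hsp-90 before C47E8.11 at 34.6 (17.4 and 14.7). Nuclear pore genes had 4 of 8 upstream and 1 of 5 downstream. Names that begin alike took in a few other genes, sfxn-5 of the sideroflexins among the splicing factors and rpa-1 among the RNA polymerase subunits.

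Mitochondrial ribosomal proteins, RNA polymerase subunits and collagens were near or below the share of all gaps as upstream genes. Mitochondrial ribosomal proteins had 6 of 32 upstream gaps (18.8%) and 9 of 28 downstream (32.1%), RNA polymerase subunits 4 of 18 upstream (22.2%) and 5 of 10 downstream, and collagens, the cuticle proteins, 4 of 14 upstream (28.6%) and 5 of 23 downstream (21.7%). Among mRNA export genes 1 of 3 upstream gaps held a member, after aly-3, itself of the Aly/REF family, with regions of 20.6 and 17.8, and 2 of 4 downstream, before nxt-1, partner of the export receptor, at 35.1 (19.0 and 14.9) and before thoc-7 of the THO complex at 16.3.

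**Figure D5:**
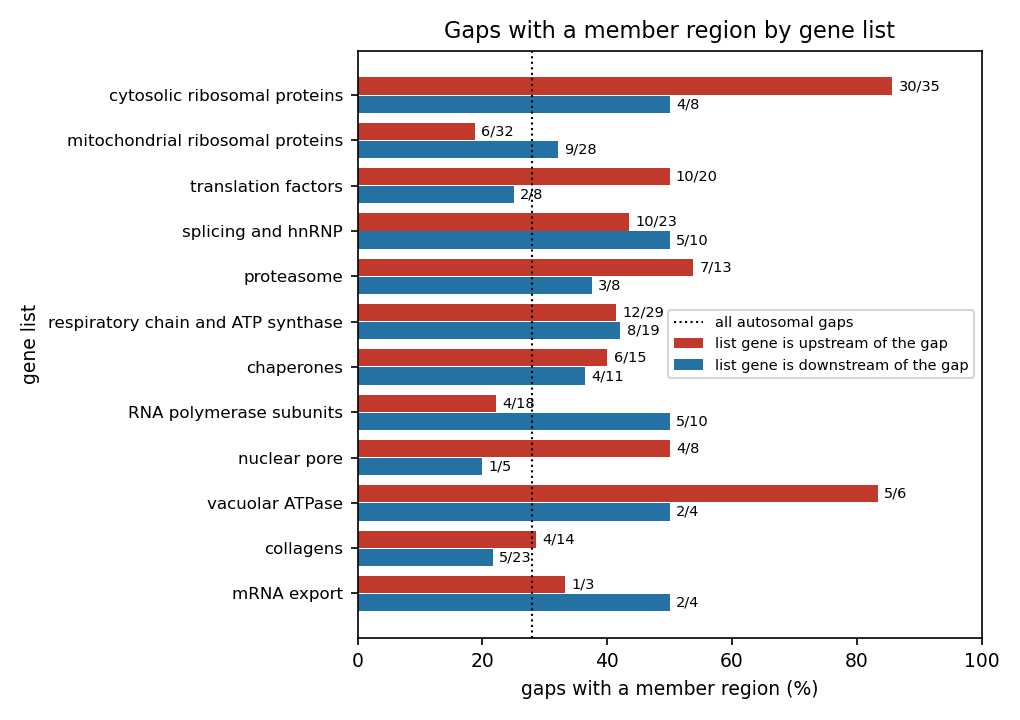
Share of autosomal tandem gaps that held a member region (horizontal axis, percent), for gaps with a gene of each list upstream (red) or downstream (blue); numbers beside bars are gaps with a member over all gaps, and the dotted line marks the 28.0% of all gaps. The longest bars are the upstream ones of cytosolic ribosomal proteins (30 of 35) and vacuolar ATPase (5 of 6).

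The same lists were then counted at 3′ ends with no tandem gap after them, where the lists high at tandem gaps were high as well. A pooled summit lay within 500 bp of the 3′ end of 30.4% of the 3637 autosomal genes followed by a tandem gap (28.9 to 31.9%) and of 25.3% of the 13605 that were not (24.6 to 26.1%). Optimal summits were at 1.7% (1.33 to 2.18%) and 1.3% (1.12 to 1.51%), with intervals that overlapped. For cytosolic ribosomal proteins the pooled shares were 85.7% of 35 genes followed by a tandem gap (70.6 to 93.7%) and 65.9% of 44 that were not (51.1 to 78.1%), and the optimal shares were 5.71% (1.58 to 18.6%) and 13.6% (6.4 to 26.7%). Both pairs of intervals overlapped. Proteasome genes had 53.8% of 13 and 75% of 20, and collagens 28.6% of 14 and 40% of the larger number without one, with overlapping intervals.

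The letters of the known processing signals were counted in all 3637 gaps, on the coding strand only. AATAAA, the polyadenylation signal, was in the last 50 bases of the upstream gene at 46.8% of the 62 gaps with an optimal member, 44.7% of the 1017 with any member and 45% of the 2620 without one. TTTCAG was in the 50 bases before the downstream 5′ end at 27.4% (17.9 to 39.6%), 23.1% (20.6 to 25.8%) and 16.1% (14.7 to 17.6%) in the same order, and at 18.1% of all gaps. TTTTCAG, which always contains it, was at 12.9%, 12.4% and 9.39%. For TTTCAG the intervals of gaps with any member and with none did not overlap. That of optimal gaps overlapped the interval of gaps with any member and lay just above that of gaps with none.

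Gap length goes with these letters, so TTTCAG was also counted within length classes. At gaps of 50 to 150 bp it was at 28.6% of 437 with a member (24.6 to 33%) and 23.1% of 861 without (20.4 to 26%), and these intervals overlapped. At gaps over 150 bp it was at 22.5% of 440 (18.8 to 26.6%) and 13% of 1394 (11.3 to 14.9%), and these did not. The U-rich element that lies in worm operon gaps is written TACCTT with the variant spellings TACTTT and also TATCTT and finally TATTTT in DNA letters. At least 1 of these 4 was in the 100 bases after the upstream 3′ end at 30.6% of optimal gaps (20.6 to 43%), 43% of member gaps (40 to 46%) and 41.8% of gaps without a member (39.9 to 43.7%). Gaps with an optimal member did not hold the letters of the U-rich element more often than the rest.

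Base composition set the optimal gaps apart by a small amount, mainly at longer gaps. Among gaps of at least 20 bp the median GC content was 34.7% in 54 with an optimal member, 31% in 919 with any member and 31.4% in 2339 with none. At 50 to 150 bp (23 optimal gaps) the medians in that order were 30.1%, 28.9% and 28.9%. Over 150 bp (27 optimal gaps) they were 38.1%, 32.8% and 32.8%. In the window of 50 bases on each side of the summit the median was 36.6% for optimal members and 32.7% for other members, against 41.6% for other optimal regions on autosomes and 31.7% for the rest. GCGC was in that window in 12 of 63 optimal members (19%, 11.2 to 30.4%) and 133 of 1069 other members (12.4%, 10.6 to 14.6%), against 70 of 255 other optimal autosomal regions (27.5%, 22.3 to 33.2%) and 1233 of 13038 of the rest (9.46%). Where the summit was in the gap itself, it was in 11 of 27 optimal members (40.7%, 24.5 to 59.3%) and 66 of 359 others (18.4%, 14.7 to 22.7%), so all but 1 of the 12 were summits that lay between the genes.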

How the data were processed

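ChIP-seq for tagged ALY-2 was done in 2 biological replicates of 1 group of L3 larvae, so no comparison between conditions exists. The authors deposited region lists on ce11 for each replicate (30000 and 26751 regions) and for the pooled replicates (17335 regions), and an optimal list. Per the file records, pooling took the alignments of the 2 replicates plus 1 more file of unstated role. Heights are the authors' deposited signal values; they were compared only within a list, set side by side between replicates, and used across lists only in the correlation. The aligner, the peak caller and any control subtraction were not given in the sources used here. Replicate lists hold more regions than the pooled list, and the number of regions does not measure depth.

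The rule was applied with protein-coding genes of Ensembl release 115, with the nearest gap midpoint taken for 7 summits that met it at more than 1 gap, and 6 summits at head-to-head pairs were left out. Lists on ce10 were not used. A member counted as found in a replicate if its summit fell in a region of that replicate's list, and the highest one there gave its replicate height. 2 regions of a gap can share a replicate region. Optimal membership was taken from the optimal list. Sequence came from RefSeq's WBcel235, and 1 gap sequence is not reported here. Shares have 95% Wilson intervals. No p-values were computed, since members are regions of 1 pooled list. The scripts were checked on simulated data, and used Python 3.11.15, numpy 2.4.6, pandas 2.3.3, scipy 1.17.1 and matplotlib 3.10.9.

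Members, gene lists, motifs and alternatives were chosen with earlier results of these data known. Genes named were both neighbours of the 15 highest member gaps, up to 4 optimal members of each list, and the longest and shortest optimal gaps. Other named genes, GCGC and the count at 3′ ends without a tandem gap were chosen after their values were seen. The alternatives used 1 replicate's list alone, a 250 bp window, gene ends at most 200 bp apart, no overlapping genes, 1 region a gap, no opposite 5′ end within 500 bp, the upper part of the optimal list, 2 other overlap rules, and no snoRNA, snRNA or tRNA gene nearby.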

Additional observations from a re-analysis of the deposited data

How the results depend on the processing

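Of 77 alternative values, 54 kept within their spread and 23 moved. With 1 replicate's list alone, without the other, the share of members among the highest regions was 3.701 to 3.97% (5.565% as reported), the median height 10.29 to 10.75 (20.32; single lists have another scale), the share found in both replicates 40.11 to 40.99% (51.33%), the share of summits in the gap 31.25 to 31.69% (34.1%) and the share beyond the upstream 3′ end 72.31 to 75.56% (78.09%). Those lists are longer than the pooled one; the cause was not tested. A 250 bp window and gene ends at most 200 bp apart admit fewer regions and shorter gaps by construction. The window gave 546 members, 54.76% in both replicates, 44.69% in the gap, a median gap of 110.5 bp and 81.68% beyond the 3′ end. The shorter limit gave 713 members, 13.88% in the gap, a median gap of 99 bp, 73.63% beyond the 3′ end and a median of 230 bp for optimal summits (194 bp as reported). Without overlapping genes the median gap was 135.5 bp (120 bp). In the upper part of the optimal list, which holds fewer regions, the share of members was 2.65% and all of its members, 100%, lay beyond the 3′ end. With any overlap of 1 bp, 63.07% were found in both replicates. Leaving out members near a snoRNA, snRNA or tRNA gene, added after the data were seen, moved none of these values. No paired analysis was possible because there is only 1 group. Depth is unknown, and no interval covers differences between worms or libraries.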
